A study of Homo sapiens with 19 samples.

Results

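The genes described here are 9 genes of the RAF-MEK-ERK pathway: the kinase BRAF, the phosphatases DUSP4 and DUSP6, the Sprouty and Spred inhibitors SPRY2, SPRY4, SPRED1 and SPRED2, and the transcription factors ETV4 and ETV5. They were chosen by name, as a list, and their reads were taken from the 121 introns that GENCODE 29 annotates in them. All 9 had reads, among 22760 genes with at least 1 read on an annotated junction in the series.

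In this pathway a receptor at the cell surface loads RAS with GTP, RAS recruits RAF kinases such as BRAF, RAF phosphorylates MEK, and MEK phosphorylates ERK. Active ERK raises transcription of genes that switch the pathway off again, among them dual-specificity phosphatases that remove phosphate from ERK and Sprouty and Spred proteins that act above or at RAF. ETV4 and ETV5 belong to the PEA3 group of ETS transcription factors and are also transcribed in response to the pathway, so these genes are often read as a measure of ERK output.

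A set of 4 splice joins recurs in the results and is shown from the GENCODE 29 transcripts (hg38), 15 bases on each side, 5′ to 3′ in the sense of the gene, with the downstream exon in capitals. The first pair shows the 154-nt BRAF exon skipped or used, the third the BRAF transcript without a pair of adjacent exons, and the fourth the DUSP6 transcript without its second exon. All 4 lie on the minus strand.
BRAF join over the 154-nt exon, intron chr7:140726517-140739811: ccactctttccccaaGAGAATTTGCAGCCT
BRAF join with the 154-nt exon, intron chr7:140734771-140739811: ccactctttccccaaATTCTCGCCTCTATT
BRAF join over 2 exons, intron chr7:140749419-140776911: tgcacagggcatggaGCACCAGAAGTCATC
DUSP6 join over exon 2, intron chr12:89349562-89351639: cgttctacctggaagATGAAGCCCGGGGCA
The 154-nt exon leaves a remainder of 1 when divided by 3, as do the pair of BRAF exons together (166 nt), while the DUSP6 exon (438 nt) is divisible by 3.

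The series counted reads over splice junctions in 19 libraries, made after removal of ribosomal RNA. A375, a melanoma line that carries an activating BRAF mutation, was sequenced as total RNA and as nuclear and cytoplasmic fractions, 1 library of each. Untreated wild-type total RNA came from HEK293, which derives from human embryonic kidney, and from HUES66, which are human embryonic stem cells, again in 1 library of each. The other 14 libraries were HUES66 cells, all under doxycycline at 1 µg/ml, in which the splicing regulator RBFOX2 was targeted or not. The series title names Cas13d, a nuclease that cuts RNA at sites set by guide RNAs, as the tool. They comprised Control libraries, labelled wild type, at 24, 48 and 96 hr (1 each), total KD (knockdown of RBFOX2 as a whole) at the same times (1 each), and knockdowns of 2 RBFOX2 isoforms named N-short and N-long in the labels, each with 2 libraries at 24 hr and 1 at 48 and at 96 hr. The Control library at 24 hr is numbered replicate 2 and the total KD library replicate 1. The labels name neither separate cultures nor clones. A375 and HEK293 grew in DMEM with serum and HUES66 in StemFlex, and the 3 lines' libraries carry names of different library series, so line, medium and series cannot be told apart.

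Libraries held 6499183 to 27937149 junction reads, and 14625040 at most in the doxycycline-treated set, so that 1 read was worth 0.0365 to 0.159 CPM, the usual unit of reads scaled to library size. Levels below are CPM of annotated junction reads per gene. In bulk RNA, fewer cells with a transcript and less transcript per cell cannot be told apart. RBFOX2 itself was at 121 to 128 CPM in the Control libraries, 49.2 to 80.3 where all of it was targeted, 109 to 123 under N-short KD and 74.0 to 89.4 under N-long KD. Marker lists were in accord with the labelled lines in part: the 10 pluripotency genes summed to 3453 CPM in wild-type HUES66, 48.8 in HEK293 and 10.2 in A375, where NANOG, TDGF1, PRDM14 and L1TD1 had no read. The 7 melanocyte genes summed to 145 CPM in A375, 9.29 in HEK293 and 51.1 in HUES66. In A375 the sum was almost all SOX10 (103) and MITF (40.0), factors of the lineage, while the pigment gene PMEL was at 0.488 CPM against 48.8 in HUES66, and the pigment cell genes MLANA and TYR were at 0 reads in all 3 lines. A list for neural crest and dedifferentiated melanoma summed to 719 CPM in A375, 12.1 in HEK293 and 64.6 in HUES66, led in A375 by AXL (503) and S100A4 (178). NGFR was higher in HUES66 (23.1 CPM) than in A375 (17.6), and SOX9 in HEK293 (6.20) than in A375 (2.93). Genes of differentiated derivatives of stem cells summed to 0.477 to 2.62 CPM in the doxycycline-treated libraries.

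In hg38, BRAF (ENSG00000157764.13) lies at chr7:140719327-140924928 on the minus strand and DUSP4 (ENSG00000120875.8) at chr8:29333064-29350668 on the minus strand. DUSP6 (ENSG00000139318.7) lies at chr12:89347232-89353271, SPRY2 (ENSG00000136158.11) at chr13:80335976-80340951 and SPRY4 (ENSG00000187678.9) at chr5:142310427-142326455, all on the minus strand. ETV4 (ENSG00000175832.12) lies at chr17:43527844-43579620 and ETV5 (ENSG00000244405.7) at chr3:186046308-186110318, both on the minus strand. SPRED1 (ENSG00000166068.12) lies on the plus strand at chr15:38252326-38357249 and SPRED2 (ENSG00000198369.9) on the minus strand at chr2:65310851-65432637. Reads per gene scale with the number of introns, from 1 in the main transcripts of SPRY2 and SPRY4 to 18 in that of BRAF, so levels were compared between genes only per intron of the main transcript. ETV5 shares 1 intron with the neighbouring gene DGKG, and its 1565 reads were left out. That intron stayed among the 12 by which ETV5 was divided, so the ETV5 levels per intron are slightly too low.

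The 9 genes took different places in the 3 cell lines. Per intron, DUSP4 led in A375 at 35.2 CPM, followed by SPRY2 at 16.3, ETV4 at 11.0, DUSP6 and SPRED1 at 10.7 each, ETV5 at 6.40, SPRY4 at 5.00, SPRED2 at 4.80 and BRAF at 4.00. In wild-type HUES66 the order per intron opened with DUSP6 at 13.6 CPM, SPRY4 at 12.2 and ETV4 at 12.1, went on with SPRED1 at 6.86, SPRY2 at 6.31, ETV5 at 4.68, BRAF at 3.69 and SPRED2 at 2.18, and ended with DUSP4 at 0.86. In HEK293 the kinase and the Spred genes came first, with BRAF at 3.78 CPM per intron, SPRED2 at 3.59 and SPRED1 at 2.31. The ERK phosphatase DUSP6 came last there, at 0.32 CPM per intron.

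**Figure D1:**
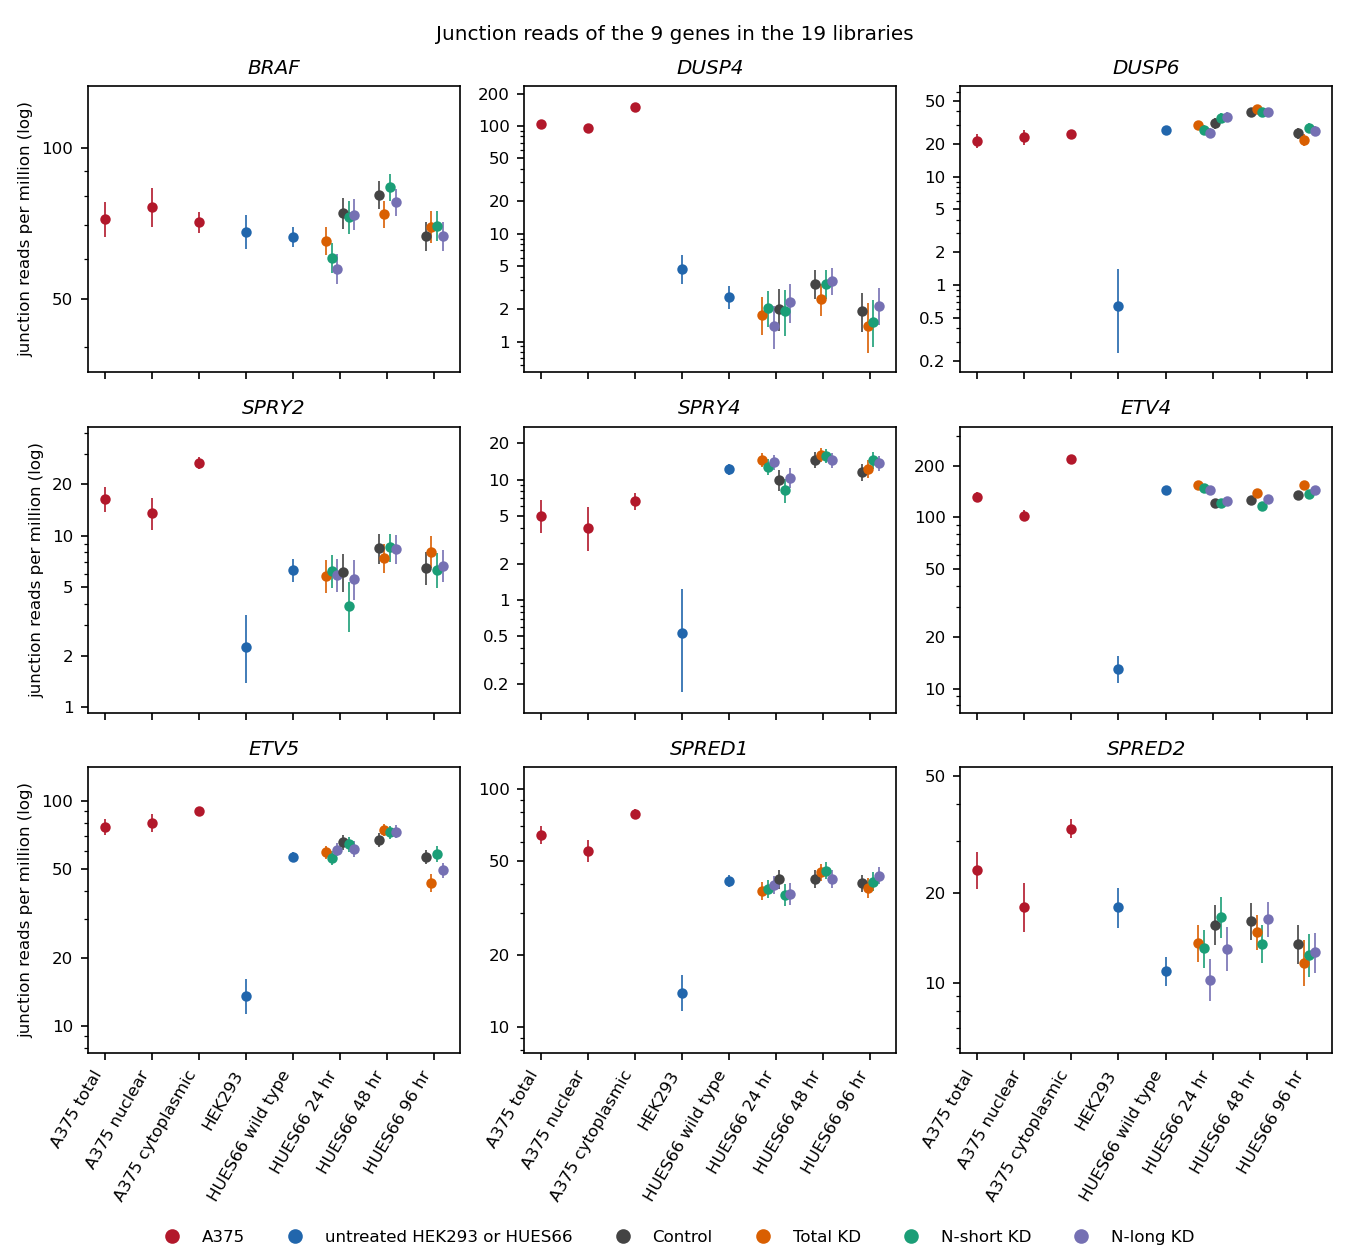
CPM (log axis) of each gene in the 19 libraries, with exact 95% Poisson intervals as bars; colours give the line or the knockdown. DUSP4 stands above 90 CPM in the 3 A375 libraries and below 5 in all others, DUSP6 and SPRY4 are lowest in HEK293, and BRAF lies between 57.4 and 83.4 in all 19.

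Between lines there was 1 library each and hence no test, so ratios carry exact 95% intervals of the ratio of 2 counts, which cover counting error only, as do all intervals below. A gene was counted as higher or lower when its ratio (with 0.5 reads added to each count) was at least 2-fold and both libraries together held at least 20 reads. BRAF, the kinase itself, was at 72.0 CPM in A375, 68.0 in HEK293 and 66.5 in HUES66. These levels lie within 1.08-fold of each other, and the ratio of A375 to HEK293 had an interval of 0.945 to 1.19.

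DUSP4, a nuclear phosphatase of ERK and related kinases, was at 106 CPM in A375 total RNA, 4.70 in HEK293 and 2.59 in wild-type HUES66. A375 was 22.5 times HEK293 (16.6 to 31.1) and 40.7 times HUES66 (32.0 to 52.7). The 14 treated HUES66 libraries had 1.39 to 3.65 CPM of DUSP4, none near the A375 level. DUSP6, the ERK-selective phosphatase of the cytoplasm, showed another order: 21.5 CPM in A375, 0.641 in HEK293, where it had only 6 reads, and 27.1 in HUES66. A375 was 33.5 times HEK293 (15.1 to 92.5) but 0.791 times HUES66 (0.668 to 0.934), and it lay just below the 21.7 to 42.1 CPM of the 14 treated libraries.

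The Sprouty genes also split. SPRY2, which blocks signalling between receptor and RAF, was at 16.3 CPM in A375, 2.24 in HEK293 and 6.31 in HUES66, and so 7.28 times HEK293 (4.58 to 12.2) and 2.59 times HUES66 (2.05 to 3.26) in A375. SPRY4, its close relative, was at 5.00 CPM in A375, 0.534 in HEK293 (5 reads) and 12.2 in HUES66. It was 9.36 times HEK293 in A375 (3.70 to 30.3), but only 0.411 times HUES66 (0.290 to 0.570). SPRY2 was thus highest in A375 and SPRY4 in HUES66, and both were lowest in HEK293.

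SPRED1, which brings the RAS-inactivating protein neurofibromin to the membrane, was at 64.1 CPM in A375, 13.9 in HEK293 and 41.2 in HUES66. A375 was 4.62 times HEK293 (3.80 to 5.64) and 1.56 times HUES66. SPRED2, its paralogue, was at 24.0 CPM in A375, 17.9 in HEK293 and 10.9 in HUES66, with A375 1.34 times HEK293 (1.08 to 1.65) and 2.20 times HUES66 (1.83 to 2.64). The log2 ratio to HUES66, 1.14, was 1.00 with TMM scaling and 0.62 with the treated Control libraries in place of the wild-type library, both under 2-fold. SPRED2 was, with BRAF, the member that did not reach 2-fold between A375 and HEK293.

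The ETS factors were lowest in HEK293 and within 1.37-fold of each other in the other lines. ETV4 was at 133 CPM in A375, 13.0 in HEK293 and 145 in HUES66, and A375 was 10.2 times HEK293 (8.43 to 12.4) and 0.912 times HUES66 (0.852 to 0.975). That last ratio changed direction, from -0.13 on the log2 scale to 0.05 on the most covered intron and 0.08 with the treated Control libraries in place of wild type. ETV5 was at 76.8, 13.6 and 56.2 CPM in the same order, with A375 5.66 times HEK293 (4.67 to 6.91) and 1.37 times HUES66 (1.24 to 1.50).

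In counts, 7 of the 9 genes were at least 2-fold higher in A375 than in HEK293, against 19.3% of the 12602 genes compared, and 0 were lower, against 18.9%. Against HUES66, 3 were higher in A375 (DUSP4, SPRY2 and, short of 2-fold in the settings named above, SPRED2; 22.5% of all genes) and 1 was lower (SPRY4; 22.6%). Between HEK293 and HUES66, 6 were lower in HEK293 (19.9% of all genes) and 0 higher (20.2%), where DUSP4 at 1.81 times and SPRED2 at 1.64 times HUES66 stood apart from the rest. With TMM scaling the split of all genes between these lines moved from 20.2% higher and 19.9% lower to 15.7% and 24.1%. That scaling shifted the median log2 ratio of all genes by 0.10 between A375 and HEK293, by -0.14 between A375 and HUES66 and by -0.24 between HEK293 and HUES66. The median log2 ratio of the members was 2.84 for A375 over HEK293, beside -0.10 for all genes, and 0.45 for A375 over HUES66, beside 0.00.

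**Figure D2:**
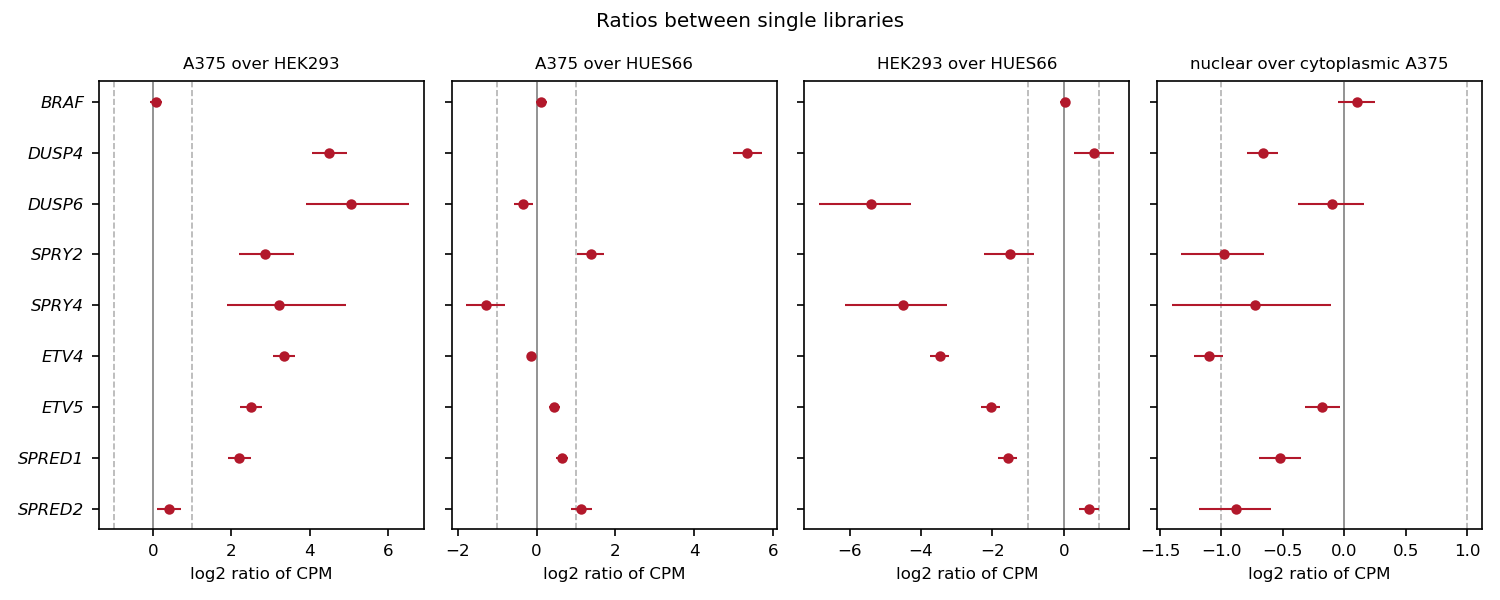
Log2 ratio of CPM between single libraries for the 9 genes, with exact 95% intervals as bars and dashed lines at 2-fold. Of the 9 points, 7 lie right of the 2-fold line for A375 over HEK293, DUSP4 stands furthest right for A375 over HUES66, and BRAF lies near 0 in all 4 panels.

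A list of 65 other genes of the pathway showed where the members' pattern was shared. Of 62 with enough reads, 22 were at least 2-fold higher in A375 than in HEK293 and 8 lower, beside 19.3% and 18.9% of all genes. Higher were 10 of 18 other targets and effectors and 6 of 12 other negative regulators. This compares with 2 of 16 genes of the kinase cascade itself, a list that also includes BRAF. The median log2 ratio was 1.15 for the other targets and -0.17 for the cascade, beside -0.10 for all genes. PHLDA1, a target of ERK signalling, was 110-fold higher in A375, with only 5 reads in HEK293 (51.3 to 373). The receptor ERBB3 was 45.9-fold higher, and the AP-1 factors FOSL1 and FOS 11.4-fold and 9.60-fold. PDGFRB, a receptor, had 163 reads in A375 and 0 in HEK293, at least 62.0-fold with 3 reads allowed for the 0. The receptor KIT had 0 reads in A375 and 104 in HEK293 (at least 30.4-fold lower), and FGFR2, the scaffold KSR1, the ERK-activated kinase RPS6KA2 and FGFR3 were 9.54-, 7.57-, 4.49- and 2.94-fold lower.

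Against HUES66, 19 of 63 pathway genes were higher in A375 and 14 lower, beside 22.5% and 22.6% of all genes. Of 18 other targets, 12 were higher. They were led by FOSL1 at 50.2-fold and the early response factor EGR1 at 16.4-fold, with only 11 EGR1 reads in HUES66 (8.82 to 36.0). PHLDA1 followed at 13.8-fold, FOS at 12.2-fold and the receptor EPHA2 at 10.7-fold. KIT was lower by at least 66.8-fold (0 against 669 reads), FGFR2 48.5-fold, FGFR1 10.9-fold, the RAS relative RRAS2 6.64-fold and RPS6KA2 6.50-fold. Between HEK293 and HUES66, 9 of 63 pathway genes were higher and 19 lower, beside 20.2% and 19.9% of all genes. Of 18 receptors and adaptors, 9 were lower. PDGFRB was at least 52.0-fold lower in HEK293, ETV1, the third member of the PEA3 group, 16.1-fold, ERBB3 11.9-fold, PHLDA1 7.92-fold and FGFR1 6.53-fold. EGR1 at 11.1-fold, RPS6KA3 at 5.04-fold, FOSL1 at 4.41-fold, EGFR at 3.50-fold and IER3 at 3.18-fold were higher in HEK293. Few reads lay behind EGR1 (43 in HEK293 and 11 in HUES66, 5.80 to 24.6) and IER3 (25 and 23, 1.73 to 5.87). PHLDA1 again had 5 reads in HEK293 (3.62 to 27.2).

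Of the 9 members, 8 had fewer CPM in the nuclear than in the cytoplasmic A375 library, but 1 passed 2-fold. ETV4 was at 103 CPM in the nuclear and 220 in the cytoplasmic library, a ratio of 0.465 (0.428 to 0.505). SPRY2 was at 13.5 and 26.7 CPM (0.506, 0.399 to 0.637) and SPRED2 at 18.0 and 33.1 (0.543, 0.441 to 0.663), so their intervals reach past the 2-fold line while their ratios do not. SPRY4 was at 3.98 and 6.60 CPM, DUSP4 at 95.7 and 152, and SPRED1 at 54.8 and 78.5, with ratios of 0.603, 0.631 and 0.697. ETV5 at 79.9 and 90.4, DUSP6 at 23.1 and 24.8 and BRAF at 76.1 and 71.0 CPM differed least, with ratios of 0.884, 0.930 and 1.07. The intervals of DUSP6 (0.769 to 1.12) and BRAF (0.965 to 1.19) include 1.

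Of all 12759 genes, 18.6% were at least 2-fold lower and 23.1% at least 2-fold higher in the nuclear library, with a median log2 ratio of -0.09. The members' median was -0.66. Nuclear RNAs (NEAT1, MALAT1, MEG3 and KCNQ1OT1, of which 3 had junctions in the table) summed to 77.7 CPM in the nuclear and 4.23 in the cytoplasmic library, and 77 ribosomal protein genes to 61979 and 169759 CPM. Among the other pathway genes, 10 were higher and 18 lower in the nuclear library, and the receptors and adaptors went against the rest. Of 16 of these, 8 were higher in the nuclear library, led by PDGFRB at 11.8-fold, ERBB3 at 11.5-fold, EGFR at 9.14-fold, ERBB2 at 7.13-fold and FGFR2 at 6.90-fold. Of the 16 genes of the cascade list, which also includes BRAF, 9 were lower there. Higher in the cytoplasmic library were HRAS at 5.30-fold, the ETS factor ELK1 at 4.44-fold, RRAS at 4.25-fold, the phosphatase DUSP7 at 3.87-fold and the ERK-binding protein PEA15 at 3.41-fold.

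None of the 9 genes passed the test in any knockdown of RBFOX2. The 14 treated libraries were compared by edgeR's quasi-likelihood test over 13628 genes, with terms for knockdown and for library set (24 hr replicate 1, 24 hr replicate 2, 48 hr and 96 hr) and Benjamini-Hochberg adjustment. Total KD changed 300 genes (2.2%). The count was 0 (0.0%) for N-short KD, 3 (0.022%) for N-long KD, and 2 genes (0.0147%) differed between the isoform knockdowns. Members called were 0 in each of these contrasts, also by DESeq2, and 1, ETV4 in total KD, had an unadjusted p below 0.05. For N-short KD, where 0 of all genes passed, 537 had an unadjusted p below 0.05 and DESeq2 called 2. The targeted gene RBFOX2 had a log2 change of -0.82 in total KD, -0.57 with N-long targeted and -0.06 with N-short targeted.

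ETV4 was at 155 CPM in total KD against 148 and 145 in the isoform knockdowns (N-short, N-long) of the 24 hr replicate 1 set, which has no Control library. It was at 138 in total KD and 126 in Control at 48 hr, and at 155 and 135 at 96 hr. Total KD was thus the highest of its set in all 3 sets that hold it. The fitted log2 change was 0.14 (SE 0.046), with an adjusted p of 0.101 by edgeR's quasi-likelihood test. With wild-type HUES66 joined as the control of the 24 hr replicate 1 set, that adjusted p was 0.0429. It was 0.0485 without the total KD library at 24 hr and 0.0474 without N-short KD at 24 hr replicate 1. In the other contrasts ETV4 was at -0.01, 0.05 and 0.07.

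DUSP4 had 15 to 49 reads per treated library, the fewest of the 9, and the widest errors. It was at 1.77 CPM in total KD at 24 hr, 2.48 in total KD and 3.43 in Control at 48 hr, and 1.39 and 1.91 at 96 hr. Its log2 change in total KD was -0.34 with an SE of 0.27 and an adjusted p of 0.675 by edgeR's quasi-likelihood test, and the 95% interval ran from -0.87 to 0.20. The estimates of the other members in total KD lay between -0.09 (SPRED2) and 0.10 (SPRY4). The 9 estimates ran from -0.12 (SPRY2) to 0.08 (DUSP6) in N-short KD, from -0.16 (SPRED2) to 0.10 (SPRY4) in N-long KD, and between N-long and N-short KD from -0.07 (SPRED2) to 0.08 (DUSP4). BRAF had a 95% interval of -0.12 to 0.11 in total KD.

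Of the other pathway genes, 63 were tested. In total KD 1 was called higher and 1 lower, while 2.2% of all genes were called in either direction. ERBB2, a receptor, rose by 0.16 in total KD (SE 0.042, adjusted p = 0.0318) and NF1, which encodes neurofibromin, fell by 0.14 (SE 0.039, adjusted p = 0.0488), both by edgeR's quasi-likelihood test. Counts were 0 of 63 for N-short KD, for N-long KD and for their difference, with 2, 4 and 5 genes at an unadjusted p below 0.05 and 0 called by DESeq2.

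**Figure D3:**
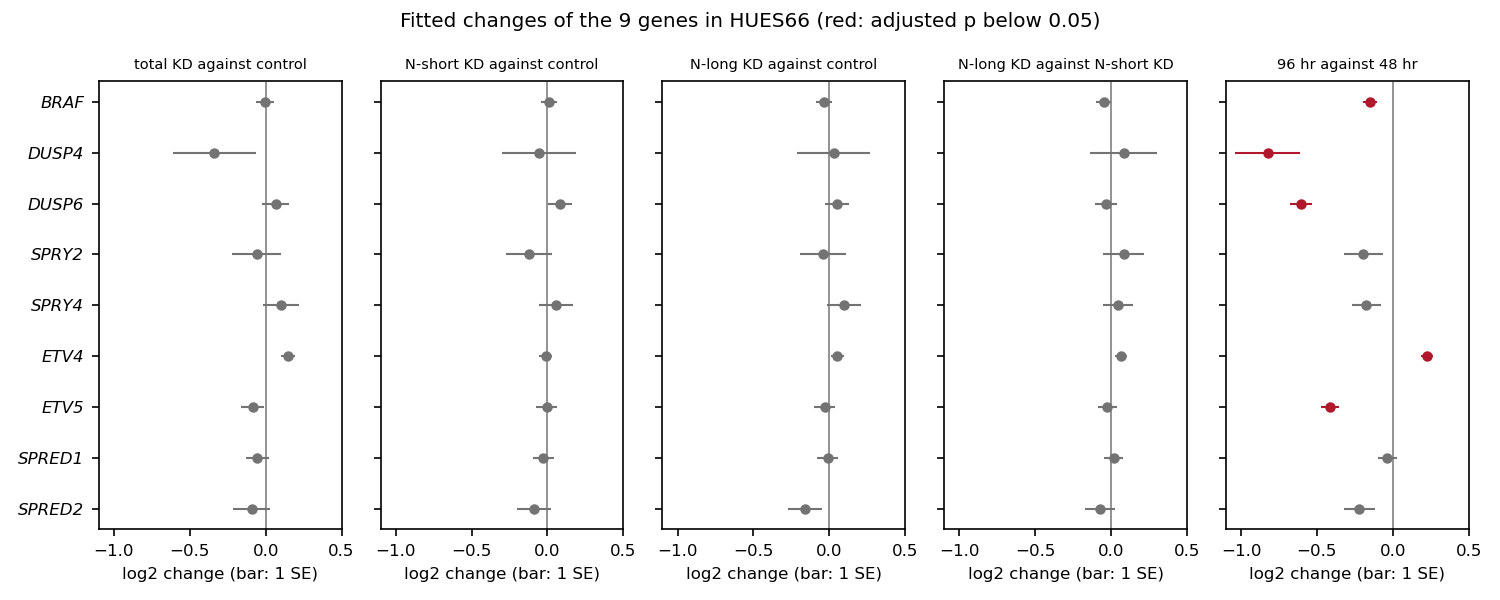
Fitted log2 changes of the 9 genes in the treated HUES66 libraries, bars 1 SE, red where edgeR's adjusted p was below 0.05. No gene is red in the 4 knockdown contrasts, and DUSP4, DUSP6, ETV5 and BRAF lie left of 0 and ETV4 right of 0 at 96 against 48 hr.

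More of the 9 genes were called between the 96 and 48 hr libraries than in the knockdown contrasts. Each time is a single library set of 4 libraries, 1 of each knockdown state, so time and library set cannot be told apart, and libraries of a set vary together. The errors and p-values below are those of set against set, with the libraries taken as independent. Between 96 and 48 hr, 5 of the 9 were called, while 59.0% of all 13628 genes were, so the members' share was near that of all genes. Of all genes 29.3% were higher and 29.7% lower, and of the members 1 was higher and 4 lower.

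DUSP6 was at 39.6 CPM in Control, 42.1 in total KD, 39.5 with N-short and 39.4 with N-long targeted at 48 hr, and at 25.0, 21.7, 28.0 and 26.3 at 96 hr. Every 96 hr library lay below every 48 hr library, as also for DUSP4, ETV5, BRAF and SPRED2. How many of all genes separate in this way was not counted, while 59.0% of them were called. The mean was 40.1 ± 1.32 CPM in the 48 hr set and 25.3 ± 2.68 in the 96 hr set (SD over the 4 libraries of a set), and the log2 change was -0.61 (SE 0.071, adjusted p = 6.29e-09, edgeR's quasi-likelihood test). ETV5 was at 67.1, 74.2, 72.6 and 73.3 CPM at 48 hr and 56.5, 43.2, 58.2 and 49.3 at 96 hr in the same order. These groups did not overlap either, and the log2 change was -0.41 (SE 0.062, adjusted p = 7.14e-07, edgeR). DUSP4 went from 3.43, 2.48, 3.42 and 3.65 CPM to 1.91, 1.39, 1.51 and 2.16, again without overlap, a log2 change of -0.83 (SE 0.22, adjusted p = 0.00144, edgeR).

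BRAF differed less, going from 80.6, 73.8, 83.4 and 77.9 CPM to 66.7, 69.5, 69.9 and 66.6. The log2 change was -0.15 (SE 0.048, adjusted p = 0.00715, edgeR), and on its most covered intron alone it was -0.21 with an adjusted p of 0.194. ETV4, the relative of ETV5, went the other way, from 126, 138, 117 and 129 CPM at 48 hr to 135, 155, 137 and 146 at 96 hr. The groups overlapped, but within each knockdown state the 96 hr library was higher, and the log2 change was 0.23 (SE 0.038, adjusted p = 4.38e-06, edgeR).

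The Sprouty and Spred genes did not pass the threshold. SPRED2 had a log2 change of -0.22 (SE 0.10, adjusted p = 0.0581, edgeR). Its levels were 13.54 to 16.4 CPM at 48 hr and 11.7 to 13.46 at 96 hr, without overlap. It was called when N-long KD at 24 hr replicate 1 or N-short KD at 48 hr was left out, with an adjusted p of 0.0469 or 0.0193. SPRY4 was at 14.5 to 16.2 and then 11.5 to 14.5 CPM, a log2 change of -0.17 with an adjusted p of 0.118 by edgeR, and of 0.0424 without N-short KD at 96 hr. SPRY2 was at 7.45 to 8.56 and 6.32 to 8.06 CPM (log2 change -0.20, adjusted p = 0.197, edgeR), and SPRED1 at 41.8 to 45.4 and 38.5 to 43.2 (-0.04, adjusted p = 0.633, edgeR).

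Of the 63 other pathway genes, 18 were higher and 19 lower in the 96 hr set, shares near the 29.3% and 29.7% of all genes. The largest were the RAS relative RRAS at -2.38 (SE 0.13), EGR1 at -1.82 (SE 0.52), FOSL1 at -1.19 (SE 0.21), HRAS at 1.18 (SE 0.086) and PDGFRB at -1.12 (SE 0.080), on the log2 scale.

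The 24 hr libraries belong to other library series and are given side by side only. DUSP6 was at 25.3 to 29.7 CPM in the replicate 1 set and 30.9 to 35.3 in the replicate 2 set. SPRY4 was at 12.8 to 14.6 CPM in the first and 8.14 to 10.3 in the second, and ETV4 at 145 to 155 and 121 to 124, so that the 3 libraries of each set stayed together in these genes whatever the knockdown. SPRED1 did not separate the sets, with 37.2 to 39.5 and 35.9 to 41.6 CPM. Between these sets of the same time, which hold different knockdowns, the log2 ratio of mean CPM was 0.29 for ETV4 and -0.31 for DUSP6. It was -0.27 for BRAF, 0.54 for SPRY4 and -0.30 for SPRED2. For ETV4, BRAF, SPRY4 and SPRED2 that is more in size than the difference between 96 and 48 hr.

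Exon use was compared at splice sites that join to more than 1 partner, as the percent of the reads at the site that use one of the introns, with Wilson 95% intervals. Each intron was compared at each such site, so 1 intron can count at its donor and again at its acceptor. The Wilson intervals were separate between A375 and HEK293 in 0 of 47 such comparisons and between A375 and HUES66 in 2 of 91. They were separate between HEK293 and HUES66 in 4 of 47, and between the fractions in 0 of 84. Splice sites of other genes were not compared, so no share over all genes stands beside these counts.

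The introns that separated A375 from HUES66 were both in SPRY2 and are the 2 alternatives of 1 splice site. SPRY2 has a distal and a proximal first exon joined to 1 acceptor, and its coding sequence lies in the exon that follows. The intron of the proximal exon, chr13:80337757-80338732, took 20 of 134 reads in A375 total RNA (14.9%, 9.87 to 21.9), 7 of 85 in nuclear RNA (8.24%) and 47 of 587 in cytoplasmic RNA (8.01%, 6.07 to 10.5). It took 2 of 173 in wild-type HUES66 (1.16%, 0.32 to 4.12), 14 of 1169 in the 14 treated libraries (1.20%, 0.71 to 2.00) and 1 of 21 in HEK293. All 3 A375 libraries were above the pooled HUES66 interval, and HEK293 had too few reads to place. The RefSeq table holds 3 SPRY2 starts. The bases before the start nearest the proximal donor and before the most distal start are shown, because the introns from the proximal and distal exons differ in use between the lines, as the 250 bases upstream of the RefSeq start (GRCh38.p14, minus strand, 5′ to 3′).
SPRY2 start nearest the proximal donor, chr13:80339660-80339909: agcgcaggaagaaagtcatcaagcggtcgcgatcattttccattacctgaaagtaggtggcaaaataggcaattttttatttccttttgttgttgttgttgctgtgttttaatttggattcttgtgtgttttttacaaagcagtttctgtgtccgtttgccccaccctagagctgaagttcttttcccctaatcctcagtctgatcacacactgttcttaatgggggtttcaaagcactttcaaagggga
SPRY2 most distal start, chr13:80341127-80341376: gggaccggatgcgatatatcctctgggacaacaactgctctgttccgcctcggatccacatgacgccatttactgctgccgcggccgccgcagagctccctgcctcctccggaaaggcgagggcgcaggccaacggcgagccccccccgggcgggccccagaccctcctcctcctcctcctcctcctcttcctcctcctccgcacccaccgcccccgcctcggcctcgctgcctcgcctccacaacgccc
The middle window, chr13:80340109-80340358, is not shown, and which start feeds which intron was not tested. None of the 3 holds the ETS motif CCGGAAG, the AP-1 motif TGANTCA, the CRE-type motif TGACGTNA or TATAAA on either strand, and so no base is in capitals. These letters occur in 8.52%, 6.57%, 2.67% and 10.7% of all 35116 such windows. In the 9 windows of the 6 members matched in the RefSeq table (BRAF, DUSP6, SPRED1, SPRED2, SPRY2 and SPRY4), the first 3 motifs were found 0 times and TATAAA once, in SPRED2. DUSP4, ETV4 and ETV5 had no entry.

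DUSP6 transcripts without the second exon (chr12:89350588-89351025, coding) made up 7 of 106 reads at the acceptor in A375 total RNA (6.60%), 3 of 93 in nuclear RNA (3.23%) and 21 of 346 in cytoplasmic RNA (6.07%, 4.00 to 9.10). They made up 8 of 450 in wild-type HUES66 (1.78%, 0.90 to 3.47) and 30 of 3600 in the treated libraries (0.83%, 0.58 to 1.19). Within the treated libraries these shares followed the library set. The 3 libraries of the 24 hr replicate 1 set had 8 of 254, 7 of 223 and 6 of 212 reads, or 3.05% pooled (2.00 to 4.61), and the other 11 had 9 of 2911 (0.31%, 0.16 to 0.59). Wild-type HUES66 carries the same library series in its name as that set. The A375 shares are thus above the pooled share of each of these sets. The interval of the 24 hr replicate 1 set, however, overlaps those of A375 total RNA (3.24 to 13.0) and cytoplasmic RNA (4.00 to 9.10). Nuclear RNA, at 3.23%, lay close to the 3.05% of that set.

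SPRED1 used a 1138-nt intron, chr15:38324810-38325947, for 15 of 99 reads at its donor in A375 total RNA (15.2%), 12 of 76 in nuclear RNA (15.8%) and 47 of 322 in cytoplasmic RNA (14.6%, 11.2 to 18.9). HEK293 had 5 of 23 reads, wild-type HUES66 20 of 223 (8.97%, 5.88 to 13.4) and the treated libraries 69 of 1318 (5.24%, 4.16 to 6.57). In single treated libraries the share ran from 0 of 63 reads to 11 of 122. For ETV5 the intron chr3:186095314-186105304 took 3 of 55 reads at its donor in A375 total RNA, 27 of 219 in cytoplasmic RNA (12.3%) and 175 of 1093 in the treated libraries (16.0%). The 162-nt cassette exon of ETV4 was included in 95.6% of reads in A375, 95.9% in wild-type HUES66 and 95.6% in the treated libraries.

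**Figure D4:**
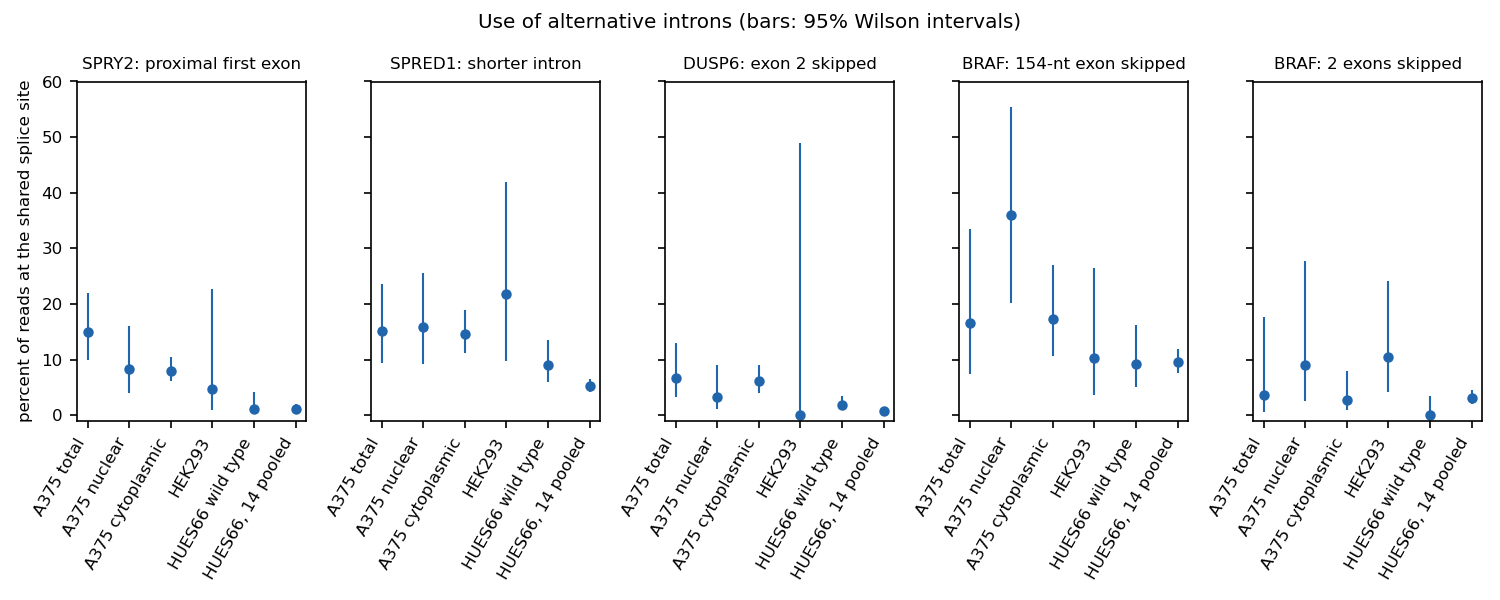
Percent of the reads at a shared splice site that use the named alternative, in the 3 A375 libraries, HEK293, wild-type HUES66 and the 14 treated HUES66 libraries pooled, with 95% Wilson intervals as bars. The SPRY2 proximal first exon is at 8.01% to 14.9% in the A375 libraries and at 1.16% and 1.20% in HUES66; the HEK293 intervals are wide.

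The 154-nt coding exon of BRAF (chr7:140734617-140734770) is printed in full because its skipping gave the lowest p of these genes in the authors' tables. It is taken from GENCODE 29 transcript BRAF-204, 5′ to 3′ on the minus strand, and in other annotated transcripts the same exon start begins a longer last exon.
BRAF 154-nt exon: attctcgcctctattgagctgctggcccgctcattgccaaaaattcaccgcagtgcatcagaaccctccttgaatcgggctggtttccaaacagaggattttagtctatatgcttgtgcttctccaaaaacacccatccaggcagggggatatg
The join over it took 5 of 30 reads at the donor in A375 total RNA (16.7%), 9 of 25 in nuclear RNA (36.0%, 20.2 to 55.5) and 14 of 81 in cytoplasmic RNA (17.3%, 10.6 to 26.9). HEK293 had 3 of 29, wild-type HUES66 10 of 108 (9.26%) and the treated libraries 67 of 705 (9.50%, 7.55 to 11.9). At 96 hr the join took 9 of 56 reads in Control (16.1%, 8.69 to 27.8) and 0 of 56 in N-long KD, which allows up to 5.36%. At 48 hr these libraries had 7 of 59 and 9 of 59, and in the 24 hr replicate 2 set 4 of 36 and 3 of 35, so the gap between N-long KD and Control lay at 96 hr. The test over all 14 libraries gave a log2 odds change of inclusion of 0.75 in N-long KD (SE 0.60, adjusted p = 0.994, edgeR's quasi-likelihood test).

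The third join, over a 47-nt and a 119-nt exon of BRAF, was the one called in a knockdown, in N-long KD alone and on few reads. It took 0 of 50, 0 of 64 and 0 of 61 reads at the donor in the 3 Control libraries, together 0 of 175, which allows up to 1.71%. In N-long KD it took 3 of 44 and 3 of 57 reads at 24 hr, 8 of 83 at 48 hr and 3 of 48 at 96 hr, together 17 of 232 (7.33%, 4.63 to 11.4). All 4 N-long KD libraries had such reads and no Control library had one. N-short KD had 2 of 54, 2 of 43, 2 of 79 and 0 of 54 (together 2.61%), and total KD 0 of 50, 1 of 50 and 0 of 43 (together 0.70%).

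Of 6198 cassette exons tested in the genome, 38 (0.613%) were called in N-long KD, 87 (1.4%) in total KD, 1 (0.0161%) in N-short KD and 27 (0.436%) between N-long and N-short KD. Of the 8 of these in the 9 genes, 1 was called, in N-long KD alone, and it was this one. The test took the pair as 1 annotated exon, chr7:140753275-140754233, which also spans the 793-nt intron between them. Inclusion was scored by the outer junctions, which do not show whether that intron was removed. Its joint inclusion fell by 5.26 in log2 odds (SE 1.29, adjusted p = 0.0319, edgeR's quasi-likelihood test), a size that rests on Control libraries with no skipping read. In N-short KD the value was -3.78 (SE 1.55, adjusted p = 1.00, edgeR) and in total KD -2.03 (adjusted p = 0.888, edgeR). The difference between N-long and N-short KD was -1.48 (SE 0.66, adjusted p = 0.905, edgeR).

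This call rests on few reads. Leaving out Control at 24 hr, 48 hr or 96 hr gave an adjusted p of 0.143, 0.496 or 0.0888, and leaving out N-long KD at 48 or 96 hr gave 0.256 or 0.157. Outside the treated set the same join took 0 of 109 reads in wild-type HUES66, 1 of 28 in A375 total RNA, 2 of 22 in nuclear and 3 of 107 in cytoplasmic RNA, and 4 of 38 in HEK293 (10.5%, 4.17 to 24.1). HEK293 and HUES66 were separate at the donor and also at the acceptor of this join. Each site counts the join and its alternative intron, which gives the 4 comparisons counted above.

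In the authors' deposited tables of splicing events, 305 events lay in 8 of the genes (none in SPRY2), 29 to 41 in each of the 9 tables. None had an adjusted p below 0.05, and 15 had a p below 0.05. The lowest was the 154-nt BRAF exon in N-long KD at 96 hr in the authors' deposited table, with a difference of -0.235 in inclusion (control minus knockdown), p = 8.84e-05 and an adjusted p of 0.194.

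For each member the 3 genes with the most similar levels over the 14 treated libraries were found by Pearson r of log2 CPM after removal of the library set means, among 13628 genes. These correlations share libraries and depth and are descriptions. For DUSP6 they were SMO (0.934), HADH (0.929) and MYOZ1 (0.913), for ETV5 VAV3 (0.939), AFG1L (0.916) and HTATSF1 (0.913), and for ETV4 SLC7A5 (0.930), NLGN3 (0.929) and RPL22L1 (0.928). For DUSP4 they were BRD1 (0.911), TRAF6 (0.896) and KIF23 (0.889), for SPRY2 ZHX1 (0.923), ZFP82 (0.904) and GPI (0.903), and for SPRY4 STXBP5L (0.924), NUTM1 (0.892) and MXRA5 (0.864). BRAF was most like TPRN (0.876), SPRED1 most like PNPLA8 (0.872) and SPRED2 most like LINC00960 (0.873). No member was among the nearest genes of another, and correlations between members on this scale ran from -0.65 to 0.48 with a median of 0.05.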

How the data were processed

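Spliced reads were measured in 19 libraries. The deposited junction tables hold counts, the authors' number of reads across each splice junction, not normalized, as their whole-number values show. STAR 2.7.1, SAMtools 1.9 and the hg38 build are named in the submitters' processing notes, without roles. The authors also deposited rMATS tables, whose inclusion difference (another scale, -1 to 1) and p-values are theirs, per the file headers. The sign is control minus knockdown, as the BRAF reads at 96 hr show. In these, 69 columns of per-library values were not used.

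The members and lists were chosen with earlier results of these data known. Reads on introns annotated in GENCODE 29 to 1 gene name were summed per gene (93.4% to 94.8% of each library's junction reads; 96.7% to 98.3% lay on annotated introns). The 14 treated libraries were fitted in edgeR 4.0.16 under R 4.3.3 (quasi-likelihood F-test, TMM, filterByExpr) with library set and knockdown as terms, and adjusted by Benjamini-Hochberg over all features (threshold 0.05). Cassette exons (up to 1000 nt, a mean of at least 20 reads, pooled inclusion of 2% to 98%) were fitted with inclusion reads (rounded mean of both inclusion junctions) and skipping reads as paired columns. DESeq2 1.42.0 was an alternative. No separate cultures are stated, so p-values measure only the spread between these samples.

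The set term comes from the library names in the labels, which put the 24 hr replicates in different series. Deviations from knockdown means had a median correlation of 0.545 for the 18 library pairs within a set, and of -0.17 for 55 pairs that shared neither set nor knockdown. On simulated counts edgeR recovered 166 of 200 genes changed by a log2 of 1 in total KD with 4 false calls (13628 genes). It recovered 140 of 200 exons changed by a log2 odds of 2 with 2 false calls (6249 exons). Simulated exon reads had binomial error only, without spread of inclusion between libraries, and the changed exons had middle inclusion levels. The exon result thus does not cover exons near full inclusion, such as the BRAF pair.

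All 9 members are named in every comparison. Other pathway genes are named if past the threshold (at most the 5 largest per contrast) or among the 5 largest ratios in each direction between single libraries. Alternatives covered scaling, filters, tool, the most covered intron, pseudocount (0.5 or 2 reads), the wild-type library as a control, the set block and each library left out.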

Additional observations from a re-analysis of the deposited data

Results flagged for a closer look

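In the 48 hr libraries, DUSP6 was at 42.1 CPM in total KD while the other 3 lay between 39.4 and 39.6 CPM, a gap of 0.912 of the group's range. It was the 1 outlying value in 36 gene and group combinations checked by Dixon's criterion, where chance gives about 1 in 20. DUSP6 was not called in total KD.

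An unannotated DUSP4 intron of 118 nt, chr8:29336120-29336237, appears outside the annotated introns on which the comparisons rest. It had 70 reads in A375 total RNA, 47 in nuclear and 189 in cytoplasmic RNA, and 0 in the other 16 libraries. It lies within the last exon of DUSP4-201 (chr8:29333064-29337411), past the end of the coding sequence and so in the 3′ UTR. Per annotated DUSP4 read, the 3 A375 libraries had 306 such reads to 4798 (6.38%), and the other 16 had 0 to 505, which allows up to 0.594%.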

How the results depend on the processing

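For the members, the count called in total KD was 0 and became 1 (ETV4) with HUES66 wild type as a control, and 0 to 1 with each library left out. The count of member exons called in N-long KD was 1, 0 to 1 with each library left out, and 0 with inclusion junctions summed, where the pooled inclusion of the BRAF exon pair no longer passed the 2% to 98% filter and it was not tested. Members higher in HEK293 than in HUES66 numbered 0, and 1 on the most covered intron alone or with the HUES66 controls in place of wild type. Members higher in A375 than in HUES66 numbered 3, and 2 with TMM scaling or with the HUES66 controls, where SPRED2 was short of 2-fold. Members lower in the nuclear than in the cytoplasmic library numbered 1, and 2 with TMM scaling. SPRED2 between N-long and N-short KD was at -0.07 and ran from -0.18 to 0.023 with each library left out, the latter without N-long KD at 24 hr replicate 1. Between 96 and 48 hr, leaving out each library gave a log2 change of -0.21 to -0.13 for BRAF, -0.93 to -0.73 for DUSP4, -0.65 to -0.51 for DUSP6, 0.19 to 0.24 for ETV4 and -0.48 to -0.33 for ETV5.

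Over all genes, total KD called 300, and 64 on the most covered intron, 536 with wild type as a control and 162 to 333 with each library left out (190, 181 and 162 without Control at 48 hr, total KD at 48 hr and Control at 96 hr). N-short KD called 0, and 1 with RLE factors, 4 with no filter, 2 with DESeq2, 1 with wild type as a control and 0 to 2 with each library left out. N-long KD called 3, and 16 with no filter, 1 with DESeq2 and 1 to 4 with each library left out. N-long against N-short KD called 2, 17 with no filter and 1 to 4 with each library left out. The time contrast called 8040, 4601 on the most covered intron and 7328 to 8082 with each library left out. Exons called were 87 in total KD (39 to 93 with each library left out, 39 without total KD at 48 hr and 52 without Control at 96 hr), 1 in N-short KD (6 with a minimum of 10 reads, 0 to 3), 38 in N-long KD (19 to 42, with 25 and 19 without Control and N-long KD at 48 hr) and 27 between N-long and N-short KD (12 to 30, with 12 without N-short or N-long KD at 48 hr and 15 without N-long KD at 96 hr). The causes were not tested.

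Without the replicate block of library sets, calls were 62 genes for total KD, 0 with N-long targeted and 0 for N-long against N-short; for exons they were 0 with N-short targeted, 22 with N-long targeted and 15 between these. The BRAF exon pair kept its call without this block (adjusted p = 0.0494, edgeR). Of the values of single genes and exons, 207 were unchanged and 14 moved under another setting, while 1 gained and 1 lost its call. For fitted changes, unchanged meant the same direction and call. For a ratio between libraries it meant inside the interval of the main ratio. A 2-fold call could still change there, as for SPRED2 in A375 over HUES66 with TMM scaling. Depth limits DUSP4 in HUES66 (15 to 49 reads), DUSP6 and SPRY4 in HEK293 (6 and 5 reads) and exon use in HEK293.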

Other observations

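Reads on introns that GENCODE 29 does not annotate made up 0.27% (DUSP6) to 7.52% (SPRY4) of the members' reads. ETV4 had a 169-nt intron of this kind, chr17:43529953-43530121, with 26 reads in the cytoplasmic, 1 in the nuclear and 6 in the total RNA library of A375. It had 17 reads in wild-type HUES66 and 1 to 12 in each treated library. HEK293 had 0, but the annotated intron at the same acceptor had only 14 reads there, against 328 in wild-type HUES66. SPRY2 had one of 2860 nt, chr13:80337757-80340616, with 8 reads in A375 total RNA, 4 in nuclear and 26 in cytoplasmic RNA. It was not particular to A375, with 4 reads in wild-type HUES66, 1 in HEK293 and up to 7 in single treated libraries.

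ETV5 used the intron chr3:186095314-186105304 at 21.4% of the donor's reads in the 24 hr replicate 1 set (16.7 to 27.1) and 20.6% at 96 hr (16.2 to 25.9), but at 12.8% in the 24 hr replicate 2 set (8.78 to 18.4) and 11.3% at 48 hr (8.60 to 14.8), each pooled over its libraries. Total KD had 24 of 120 reads on it at 48 hr where Control had 5 of 79, but at 96 hr 10 of 44 where Control had 16 of 86.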
